A study of Mus musculus with 6 samples.

Results

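Among the 30071 genes of the deposited table, 37 were taken by symbol as genes of Wnt signalling: 4 ligands, 7 frizzled receptors, 4 receptors of the LRP and ROR families, 4 genes of the R-spondin module, 7 secreted or cell-surface inhibitors, 4 cytoplasmic regulators, 5 nuclear factors and 2 CCN matrix proteins. The symbols were a list of pathway genes chosen with earlier results of these data known. All 37 were found, each in a single row. The cells were MC3T3-E1, a mouse pre-osteoblast line, on polyetheretherketone (PEEK), an implant polymer, with a nano- and microstructured surface. A first group of 3 libraries was made from cells given RAW264.7 supernatant (a macrophage line), and a second group of 3 libraries from cells on the same surface alone. Replicates 1, 2 and 3 are the libraries named SPS1, SPS2 and SPS3 with supernatant and SP1, SP2 and SP3 on PEEK alone. The titles call SPS2 and SP2 biological replicate 1 of their group and SPS3 and SP3 biological replicate 2, and give SPS1 and SP1 no replicate label. The labels used here name no dose, no culture time and no surface for the macrophages. Both groups share the line and the surface, and by their labels differ in the supernatant.

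Wnt proteins are secreted ligands that bind a frizzled receptor together with the co-receptor Lrp5 or Lrp6. Binding disables a cytoplasmic complex built on axin that otherwise marks β-catenin for destruction, and β-catenin then joins TCF/LEF factors on DNA. Several of the genes so switched on, among them Axin2, Nkd1, Rnf43, Znrf3 and Notum, restrain the pathway in return, and their transcripts are widely used as a readout of it. In bone the pathway drives progenitors towards osteoblasts, and loss of LRP5 in humans causes low bone mass.

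Total counts were 74927500 to 82803173 per library. Replicate 1 of each group stood apart from the rest of its group. The mean chi-square per gene between replicates 2 and 3 was 34.7 with supernatant and 25.4 on PEEK alone. Pairs with replicate 1 gave 102 and 112 with supernatant and 60.3 and 56.3 on PEEK alone. Between the groups, replicate 1 with supernatant gave 70.6, 79 and 93.8 with replicates 1, 2 and 3 of PEEK alone. Replicate 1 with supernatant was thus closer to each library on PEEK alone than to its own group. Replicate 1 of PEEK alone gave 62.8 and 57.4 with replicates 2 and 3 with supernatant, near its values within its group. Among replicates 2 and 3, the lowest value between the groups was 68.5. Runx2, Sp7 and Alpl, which define osteoblasts, were detected in every library, while Bglap (osteocalcin) had 17, 0 and 0 counts with supernatant and 0, 2 and 2 counts on PEEK alone. Of 11 macrophage markers in the table, the summed level was 3.53 to 4.15 CPM (CPM is the count scaled to library size) with supernatant and 3.11 to 5.41 CPM on PEEK alone, and Ptprc was at 0 in 5 libraries. Csf1r, another macrophage marker, had 23, 27 and 44 counts with supernatant and 20, 22 and 46 counts on PEEK alone, and Spi1 had 0, 8 and 15 counts with supernatant and 0, 6 and 8 counts on PEEK alone. Cd68, the most abundant macrophage marker, had 95, 202 and 141 counts with supernatant and 151, 274 and 187 counts on PEEK alone. Fcgr3, a macrophage Fc receptor, had 36, 36 and 46 counts with supernatant and 26, 21 and 14 counts on PEEK alone, without overlap of the groups (log2 fold change 0.97, SE 0.42, edgeR unadjusted p = 0.0491, adjusted p = 0.555). Of the 6 adipocyte markers, Adipoq and Plin1 were at 0 in all 3 libraries with supernatant and at 4 counts or fewer on PEEK alone, while Cebpa had 64, 50 and 108 counts with supernatant and 36, 33 and 44 counts on PEEK alone (log2 fold change 0.98, SE 0.37, edgeR unadjusted p = 0.0280, adjusted p = 0.498). Fabp4, Pparg and Lpl were detected in every library with overlap of the groups, and the summed level of the list was 3.88 to 7.87 CPM with supernatant and 4.22 to 4.66 CPM on PEEK alone. The part of these markers in the Wnt values was not tested. Of chondrocyte markers, Sox9 was at 92.4 to 155 CPM with supernatant and 90.0 to 131 CPM on PEEK alone, and Col2a1 at no more than 1.05 CPM in any library.

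The transcripts of the pathway ran from abundant to undetected. By mean FPKM over the 6 libraries (fragments scaled to gene length and library size, so that genes can be compared), 5 genes reached 10 FPKM, 19 lay from 1 to under 10 FPKM, 11 were above 0 but under 1 FPKM, and 2 (Sp5 and Dkk2) had no count in any library. A count of 0 allows up to 0.0366 to 0.0405 CPM, that is 3 counts per library; this limit covers counting error only. For the test, 34 of the 37 genes had enough counts; Sp5, Dkk2 and Sfrp2 did not.

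**Figure D1:**
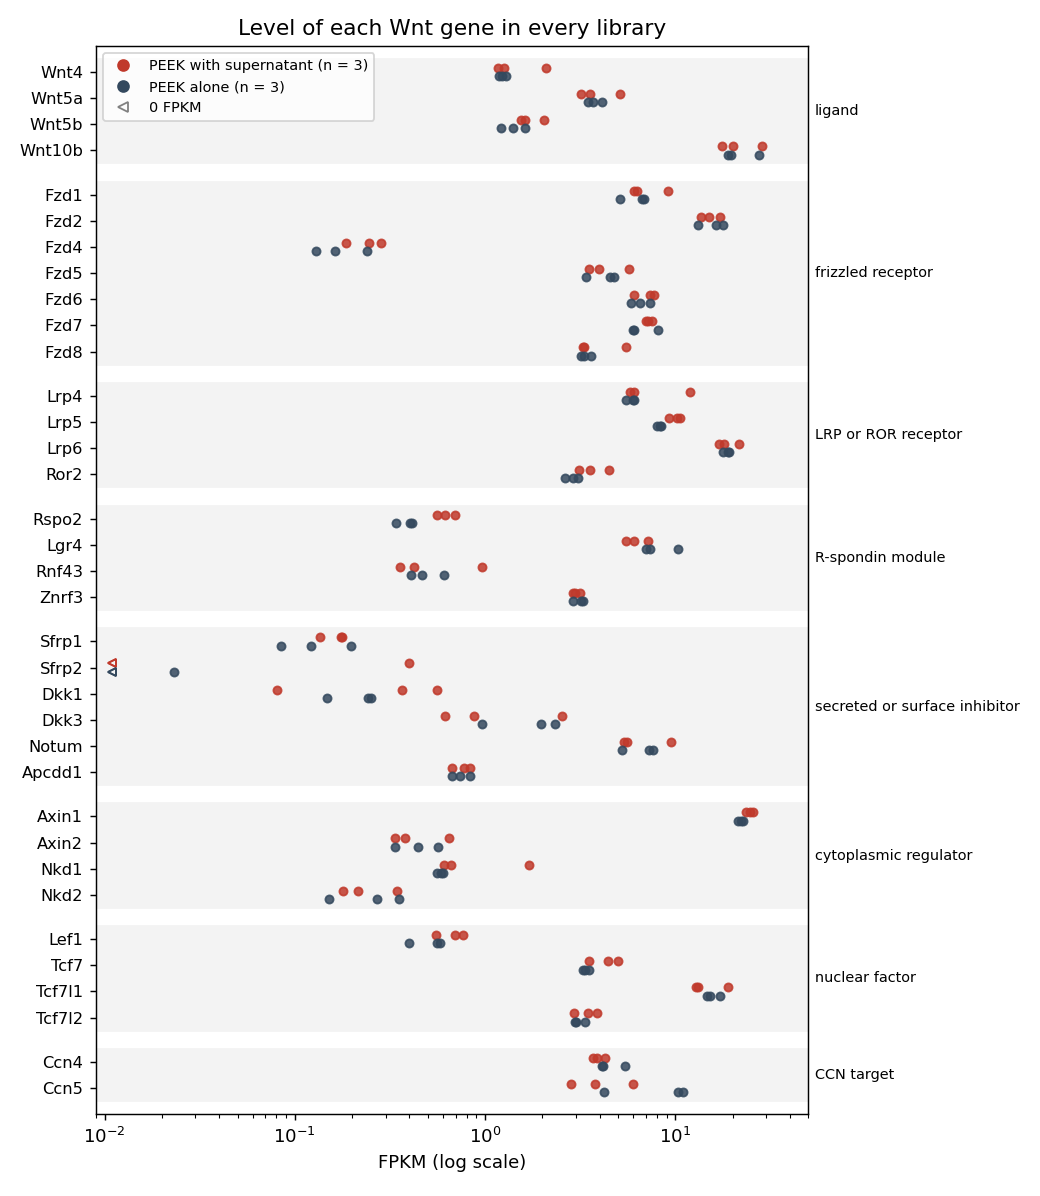
FPKM of the 35 detected Wnt genes on a log axis, grouped by role; each point is a library, 3 on PEEK with supernatant (red, upper row of a gene) and 3 on PEEK alone (dark, lower row), and open triangles stand for 0 FPKM. Wnt10b, Fzd2, Lrp6, Axin1 and Tcf7l1 lie above 10 FPKM on average, and the groups overlap for most genes.

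Promoter sequences were at hand for 21 of the 37 genes, with 29 start sites (RefSeq, GRCm38.p6, 250 bases before to 50 bases after the start), and were searched on both strands for the TCF/LEF cores CTTTGAT and CTTTGAA, which share all but their last base, so that a given site matches only 1 of them. A core was present at 3 of the 29 start sites, or 10.3%, where 8.65% of the 32851 start sites of all genes held one. The 3 windows are printed to show where the core lies. Each reads 5′ to 3′ along the gene's own strand, with the core in capitals: Sp5 at chr2:70474673-70474972 (plus strand), Wnt5b at chr6:119449337-119449636 (minus strand) and Dkk1 at chr19:30549447-30549746 (minus strand).
Sp5: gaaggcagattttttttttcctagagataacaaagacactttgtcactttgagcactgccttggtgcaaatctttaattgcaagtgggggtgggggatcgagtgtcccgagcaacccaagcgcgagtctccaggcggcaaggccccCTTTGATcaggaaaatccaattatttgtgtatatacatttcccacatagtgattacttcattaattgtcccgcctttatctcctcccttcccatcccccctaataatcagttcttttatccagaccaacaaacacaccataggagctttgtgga
Wnt5b: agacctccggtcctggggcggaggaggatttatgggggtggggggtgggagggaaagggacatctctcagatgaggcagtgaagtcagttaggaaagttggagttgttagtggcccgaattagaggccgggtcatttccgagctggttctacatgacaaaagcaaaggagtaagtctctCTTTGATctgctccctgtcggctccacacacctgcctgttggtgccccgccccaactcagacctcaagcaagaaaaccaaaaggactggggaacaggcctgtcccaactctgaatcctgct
Dkk1: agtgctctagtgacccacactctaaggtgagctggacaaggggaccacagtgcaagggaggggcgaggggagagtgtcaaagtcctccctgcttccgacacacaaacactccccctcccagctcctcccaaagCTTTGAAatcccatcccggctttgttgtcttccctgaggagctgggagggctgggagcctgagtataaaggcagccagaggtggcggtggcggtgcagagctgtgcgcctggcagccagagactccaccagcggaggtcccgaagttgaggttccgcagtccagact
The core begins 104 bases before the start in Sp5, 71 bases before it in Wnt5b and 117 bases before it in Dkk1. Sp5, a transcription factor gene induced by β-catenin, had no count in any library. Wnt5b, a ligand close in sequence to Wnt5a, was at 5.45, 4.49 and 4.26 CPM with supernatant and 3.32, 4.47 and 3.89 CPM on PEEK alone (log2 fold change 0.28, SE 0.19, edgeR adjusted p = 0.718, and 0.18 without replicate 1 with supernatant). Its lowest library with supernatant lay below the highest on PEEK alone. A match describes letters in this window and is no record of binding.

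With supernatant minus PEEK alone, none of the 34 tested Wnt genes passed the threshold of an adjusted p under 0.05 (edgeR quasi-likelihood test, Benjamini-Hochberg adjustment over all genes). Over all 18177 tested genes 3 passed, or 0.0165%, so a count of 0 here is near the background. With DESeq2, 0 of the 34 passed, against 1.01% of the 29240 genes with an unadjusted p, a wider set taken without the edgeR count filter. DESeq2 applies its own low-count filter to the adjusted p. Fewer of these genes may thus have been open to a call, and the share among those may be higher. At an unadjusted edgeR p under 0.05, 4 Wnt genes had a higher level with supernatant (Lrp5, Rspo2, Ror2 and Tcf7), where 4.65% of all genes did, and 2 a lower one (Ccn5 and Lgr4), where 4.3% of all genes did. Without replicate 2 of PEEK alone 3 of the 34 reached that p, as did 5.66% of all genes, and without replicate 3 of PEEK alone 3 did, as did 5.4% of all genes. Without replicate 1 of PEEK alone 5 did, as did 2132 of 18885 genes. Without replicate 2 with supernatant 5 did (1114 of 18843 genes), without replicate 3 with supernatant 5 (1215 of 18849 genes), and without replicate 1 with supernatant 8 (3257 of 18819 genes). For 6 genes (Lrp5, Ror2, Rspo2, Axin1, Nkd1 and Tcf7) every library with supernatant lay above every library on PEEK alone, as for 7.83% of all tested genes, and for Lgr4 every library lay below, as for 7.36% of all tested genes. The median log2 fold change was 0.11 over the 34 genes and −0.01 over all tested genes, with 25 of the 34 above 0; without replicate 1 with supernatant these were 0.02 and −0.01, with 18 of the 34 above 0.

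**Figure D2:**
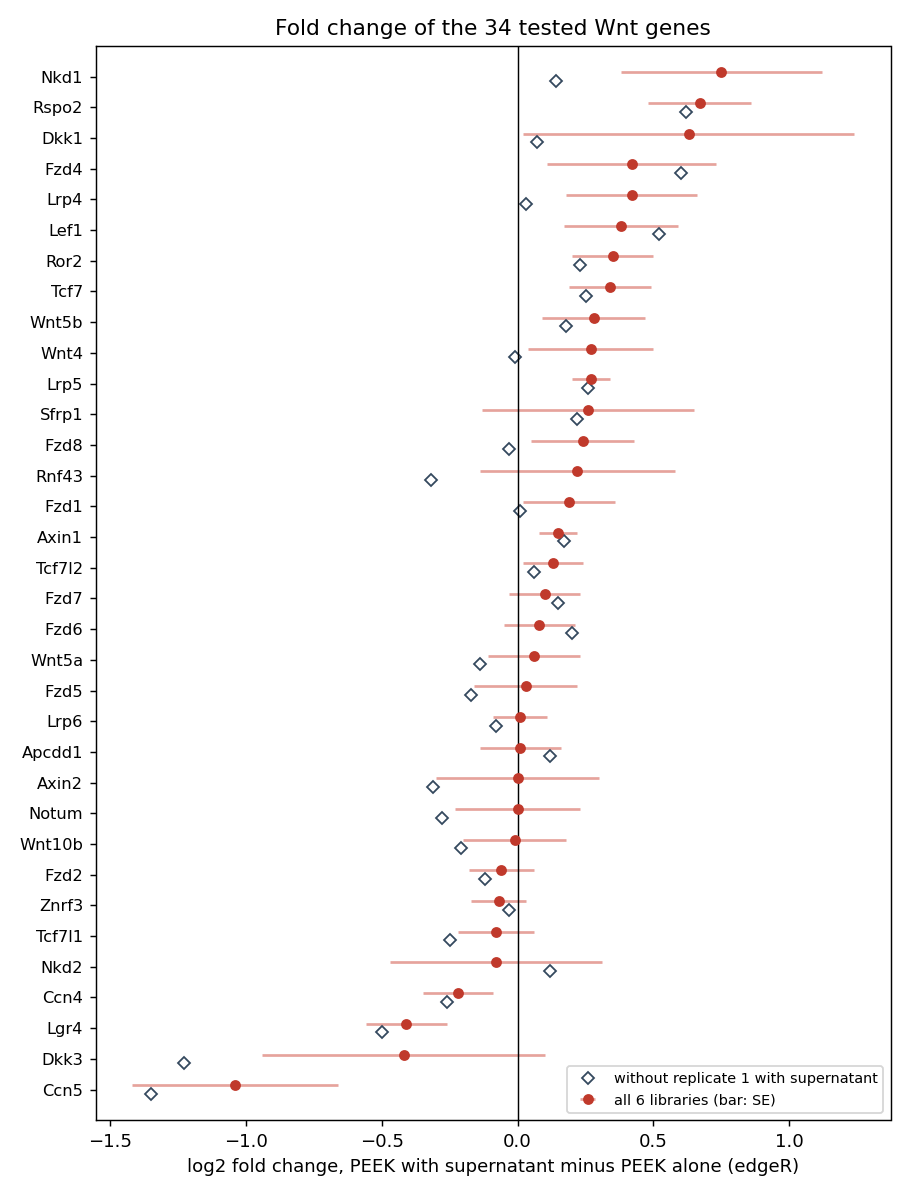
log2 fold change (PEEK with supernatant minus PEEK alone, horizontal axis) of the 34 tested Wnt genes from all 6 libraries (filled points, bars are standard errors) and without replicate 1 with supernatant (open diamonds). Rspo2 and Lrp5 keep nearly the same value, at 0.67 and 0.62 and at 0.27 and 0.26, while Nkd1 is at 0.75 with all libraries and 0.14 without that library.

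The ligand pool was mostly Wnt10b, a ligand that promotes bone formation in mice. It took 73.7, 70.7 and 75.3% of the summed FPKM of the 11 Wnt genes analysed with supernatant (replicates 1, 2 and 3), against 79.9, 71.1 and 73.0% on PEEK alone. Wnt5a (a ligand best known for β-catenin-independent signalling) came next, lying above Wnt5b and Wnt4 in all 6 libraries, while Wnt5b exceeded Wnt4 in 4 of 6. Wnt10b was at 97.55, 62.6 and 70.25 CPM with supernatant and 95.4, 69.4 and 67.1 CPM on PEEK alone (log2 fold change −0.01, SE 0.19, edgeR adjusted p = 0.991). In both groups replicate 1 was the highest, and the groups overlapped. Wnt4, a ligand with roles in both branches, was at 8.79, 5.47 and 5.07 CPM with supernatant and 5.26, 5.62 and 5.17 CPM on PEEK alone, so that 1 library, replicate 1 with supernatant, stood out. The log2 fold changes of the 4 ligands were −0.01 to 0.28, and all 4 had their highest level in replicate 1 with supernatant.

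Fzd2 was the leading frizzled receptor, with 30.6 to 33.1% of the summed FPKM of 9 frizzled genes with supernatant and 31.8 to 36.1% on PEEK alone. It was at 62.9, 52.2 and 57.15 CPM with supernatant and 67.1, 62.5 and 50.1 CPM on PEEK alone (log2 fold change −0.06, SE 0.12, edgeR adjusted p = 0.917), with full overlap of the groups. Fzd7, Fzd6 and Fzd1 followed at means of 6.99, 6.82 and 6.70 FPKM and changed order from library to library; Fzd5 (4.32 FPKM) and Fzd8 (3.71 FPKM) came next, and Fzd4, known as the receptor for norrin, was the lowest at 0.208 FPKM. Among the 7 frizzled genes the log2 fold change ran from −0.06 to 0.42, and the adjusted p from 0.738 to 0.977. Fzd8 was at 33.25, 20.35 and 20.37 CPM with supernatant and 20.3, 19.9 and 22.6 CPM on PEEK alone. As for Wnt4, replicate 1 with supernatant was apart and the other 5 libraries lay close together.

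The co-receptor Lrp5 had the smallest p of the Wnt genes. The deposited table places it on the minus strand of chromosome 19, from 3634828 to 3736564, and names no build for this or any other gene. Lrp5 was at 103.5, 94.1 and 102.9 CPM with supernatant and 83.2, 81.0 and 85.1 CPM on PEEK alone. All libraries with supernatant were above all on PEEK alone, and the spread within each group was small. The log2 fold change was 0.27 (SE 0.07, edgeR unadjusted p = 0.00599, adjusted p = 0.334), leaving out single libraries gave 0.25 to 0.31, and the adjusted p was 0.0771 to 0.848 over the alternatives. Its partner co-receptor Lrp6 was more abundant in every library, at 18.8 FPKM on average against 9.14 FPKM for Lrp5. Lrp6 was at 298, 258 and 239 CPM with supernatant and 249.7, 271 and 270.4 CPM on PEEK alone (log2 fold change 0.01, SE 0.10, edgeR adjusted p = 0.989), with replicate 1 with supernatant the highest and replicate 3 the lowest of the 6. Lrp5 made up 32.8, 33.9 and 37.7% of the Lrp5 and Lrp6 FPKM with supernatant, against 31.9, 29.6 and 30.7% on PEEK alone.

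Ror2, a tyrosine kinase receptor for Wnt5a, was at 19.0, 13.7 and 15.5 CPM with supernatant and 13.4, 12.8 and 11.6 CPM on PEEK alone. The groups were separate by a narrow margin, replicate 2 with supernatant lying just above replicate 1 of PEEK alone. Its log2 fold change was 0.35 (SE 0.15, edgeR unadjusted p = 0.0408, adjusted p = 0.531), and 0.23 without replicate 1 with supernatant. Lrp4, a receptor that binds the Wnt inhibitors sclerostin and Dkk1, was at 126, 66.4 and 62.9 CPM with supernatant and 65.15, 65.7 and 60.2 CPM on PEEK alone. Replicate 1 with supernatant departed from the other 5 libraries, and the log2 fold change of 0.42 (SE 0.24, edgeR adjusted p = 0.660) was 0.03 without it.

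**Figure D3:**
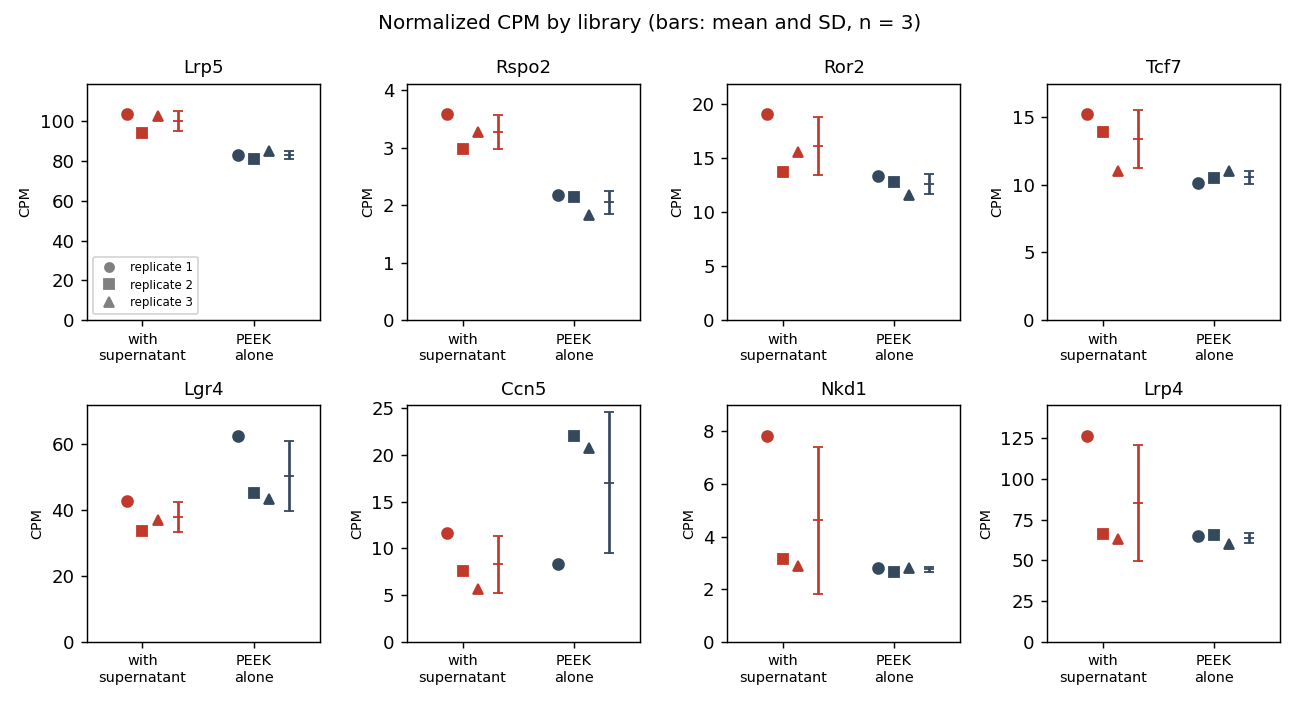
Normalized CPM of 8 Wnt genes on linear axes from 0; circles, squares and triangles are replicates 1, 2 and 3, on PEEK with supernatant (left, red) and on PEEK alone (right, dark), and bars give mean and SD. Lrp5 and Rspo2 show separate groups with all 3 libraries close together, while Nkd1 and Lrp4 show a single high library, replicate 1 with supernatant.

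R-spondins bind Lgr receptors and keep the membrane ubiquitin ligases Rnf43 and Znrf3 from removing frizzled receptors, which strengthens the Wnt response. The R-spondin gene Rspo2 (chromosome 15 from 42884190 to 43034222, minus strand) had 283, 220 and 263 counts with supernatant and 169, 176 and 143 counts on PEEK alone. As normalized levels these were 3.58, 2.97 and 3.27 CPM with supernatant and 2.18, 2.145 and 1.82 CPM on PEEK alone, with a clear gap between the groups. The log2 fold change was 0.67 (SE 0.19, edgeR unadjusted p = 0.00769, adjusted p = 0.366), 0.60 to 0.74 without single libraries, with an adjusted p of 0.118 to 0.881 over the alternatives. The level remained low beside other members, at 0.504 FPKM on average.

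Lgr4, a receptor for R-spondins (chromosome 2 from 109747992 to 109844602, plus strand), had the opposite sign. It was at 42.6, 33.6 and 37.03 CPM with supernatant and 62.3, 45.05 and 43.3 CPM on PEEK alone. All libraries with supernatant were below all on PEEK alone, but replicate 1 with supernatant was within 1 CPM of replicate 3 of PEEK alone. The log2 fold change was −0.41 (SE 0.15, edgeR unadjusted p = 0.0278, adjusted p = 0.498) and −0.22 without replicate 1 of PEEK alone, the highest library. Znrf3 was at 23.65, 26.03 and 23.59 CPM with supernatant and 23.3, 27.0 and 26.5 CPM on PEEK alone (log2 fold change −0.07, SE 0.10, edgeR adjusted p = 0.882), and its highest library was 1.16 times its lowest, the smallest such ratio of the 34 tested genes. Its relative Rnf43 was at 6.39, 2.91 and 2.45 CPM with supernatant and 2.75, 3.19 and 4.17 CPM on PEEK alone. The highest and the lowest library were both in the supernatant group, replicates 1 and 3, and the log2 fold change of 0.22 (SE 0.36, edgeR adjusted p = 0.898) was −0.32 without replicate 1 with supernatant.

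Notum, a secreted enzyme that removes the lipid a Wnt protein needs for its activity, was by far the most abundant of the inhibitors, at 6.75 FPKM on average against 1.55 FPKM for Dkk3, the next. Notum was at 22.9, 13.5 and 13.9 CPM with supernatant and 17.9, 19.1 and 13.1 CPM on PEEK alone (log2 fold change 0.00, SE 0.23, edgeR adjusted p = 0.999). Here the supernatant group held the highest library, replicate 1, and the means were the same to 3 digits, 16.7 and 16.7 CPM. Apcdd1, a membrane protein that binds Wnt and LRP proteins, was at 8.74, 10.5 and 11.1 CPM with supernatant and 8.91, 9.87 and 11.2 CPM on PEEK alone, with full overlap. Dkk3, a dickkopf relative whose part in Wnt signalling is less settled, was at 8.55, 3.07 and 2.14 CPM with supernatant and 3.33, 6.85 and 8.21 CPM on PEEK alone. With supernatant replicate 1 was the highest of its group and on PEEK alone replicate 1 was the lowest, and the log2 fold change was −0.42 (SE 0.52, edgeR adjusted p = 0.861). It was −1.23 without replicate 1 with supernatant and −0.08 without replicate 3 with supernatant. Dkk1, which blocks Lrp5 and Lrp6, was scarce, with 109, 15 and 74 counts with supernatant and 29, 50 and 50 counts on PEEK alone. The supernatant libraries held both its highest and its lowest value (log2 fold change 0.63, SE 0.61, edgeR adjusted p = 0.815), and the fold change was 0.07 without replicate 1 with supernatant and 1.08 without replicate 2 with supernatant.

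Secreted frizzled-related proteins bind Wnt ligands outside the cell. Sfrp1 had 62, 60 and 50 counts with supernatant and 30, 74 and 44 counts on PEEK alone, at 0.149 FPKM on average. Sfrp2 had 0, 0 and 71 counts with supernatant and 4, 0 and 0 counts on PEEK alone. Its transcripts were thus nearly all in replicate 3 with supernatant, and no fold change is given. Dkk2 had no count in any library.

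Axin1, the scaffold of the β-catenin destruction complex, had the highest mean FPKM of the 37 genes, at 23.4 FPKM. Wnt10b lay above it in replicate 1 of both groups, at 28.5 against 24.8 FPKM with supernatant and 27.4 against 22.2 FPKM on PEEK alone. Axin1 was at 95.3, 94.3 and 101.5 CPM with supernatant and 87.2, 84.8 and 90.9 CPM on PEEK alone. The groups were separate, and the log2 fold change was small at 0.15 (SE 0.07, edgeR unadjusted p = 0.0750, adjusted p = 0.607). Its relative Axin2, made in response to β-catenin, was at 0.451 FPKM on average. Axin2 had 286, 144 and 176 counts with supernatant and 148, 267 and 201 counts on PEEK alone, with the highest level in replicate 1 with supernatant and the next in replicate 2 of PEEK alone. Its log2 fold change was 0.00 (SE 0.30, edgeR adjusted p = 0.997), and −0.31 to 0.21 without single libraries.

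The naked cuticle genes Nkd1 and Nkd2 encode inhibitors that bind Dishevelled, the protein that relays the receptor signal. Nkd1 was at 7.815, 3.135 and 2.88 CPM with supernatant and 2.80, 2.64 and 2.80 CPM on PEEK alone. Replicate 1 with supernatant was 2.49 times the next library, the largest such gap among the 34 tested genes, while the other 5 libraries lay between 2.64 and 3.135 CPM. The log2 fold change was 0.75 (SE 0.37, edgeR unadjusted p = 0.0778, adjusted p = 0.611) and 0.14 without that library. Nkd2 was at 0.873, 1.08 and 1.74 CPM with supernatant and 0.762, 1.35 and 1.80 CPM on PEEK alone, with full overlap of the groups.

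Tcf7l1, the family member best known as a repressor in the absence of β-catenin, held most of the TCF/LEF pool, at 66.6, 59.9 and 64.7% of the summed FPKM of the 4 factors with supernatant and 70.6, 68.6 and 68.1% on PEEK alone. As a level, Tcf7l1 was at 74.3, 52.4 and 53.5 CPM with supernatant and 69.0, 61.9 and 59.9 CPM on PEEK alone (log2 fold change −0.08, SE 0.14, edgeR adjusted p = 0.899). Its highest value was in replicate 1 with supernatant, and replicates 2 and 3 with supernatant were the lowest. Tcf7, which encodes TCF1, was at 15.2, 13.9 and 11.02 CPM with supernatant and 10.1, 10.5 and 11.02 CPM on PEEK alone (log2 fold change 0.34, SE 0.15, edgeR unadjusted p = 0.0470, adjusted p = 0.545). Its lowest library with supernatant and its highest on PEEK alone, both replicate 3, were equal as printed, so the groups barely separate. Lef1 was at 4.89, 6.34 and 6.98 CPM with supernatant and 5.04, 5.35 and 3.66 CPM on PEEK alone (log2 fold change 0.38, SE 0.21, edgeR unadjusted p = 0.112, adjusted p = 0.651), and 0.22 without replicate 3 of PEEK alone, its lowest library. Tcf7l2 had a log2 fold change of 0.13 (SE 0.11), and 0.06 without replicate 1 with supernatant.

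Ccn5, a CCN matrix protein also known as WISP2 (chromosome 2 from 163662781 to 163675066, plus strand), had the largest difference of the 34 tested genes. It was at 11.65, 7.62 and 5.63 CPM with supernatant and 8.37, 22.0 and 20.7 CPM on PEEK alone. The groups overlapped, since replicate 1 of PEEK alone lay among the libraries with supernatant. The log2 fold change was −1.04 (SE 0.38, edgeR unadjusted p = 0.0252, adjusted p = 0.488) and −1.36 to −0.81 without single libraries. Ccn4, also known as WISP1 and first described as a Wnt-induced gene, was at 23.9, 21.3 and 22.4 CPM with supernatant and 31.0, 23.7 and 24.2 CPM on PEEK alone. Its log2 fold change was −0.22 (SE 0.13, edgeR unadjusted p = 0.110, adjusted p = 0.650), and −0.08 without replicate 1 of PEEK alone, which held the highest value.

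Many of the differences above sat in 1 library. Of the 34 tested Wnt genes, 21 (61.8%) peaked in replicate 1 with supernatant, as did 22.9% of all 18177 tested genes and 21 of 60 other Wnt pathway genes (35.0%). That library was also the lowest for 2 of the 34 genes and for 21.1% of all tested genes. It was at least 1.5 times the next library for 4 of the 34 genes, or 11.8% (Wnt4, Lrp4, Rnf43 and Nkd1), against 2.4% of all tested genes and 2 of the 60 other pathway genes (3.33%); this margin was chosen after the values were seen. No other library led by that margin for any of the 34 genes. The median deviation of the 34 genes from the PEEK-alone mean, in log2 CPM, was 0.37, 0.03 and −0.03 in replicates 1, 2 and 3 with supernatant and 0.00, 0.04 and −0.02 on PEEK alone. Of 10 genes known as targets that feed back on the pathway or carry it in the nucleus (Axin2, Lef1, Tcf7, Nkd1, Nkd2, Rnf43, Znrf3, Apcdd1, Notum and Sp5), 9 were tested; 5 had their highest level in that library (Axin2, Tcf7, Nkd1, Rnf43 and Notum) and 1 its lowest (Apcdd1). Of the 10 osteoblast markers, 9 were also highest in that library. The level there was 2.82 times the next library for Alpl, 1.98 for Sp7, 1.78 for Dlx5 and 1.41 for Runx2. The same ratio was only 1.11 for Pth1r, 1.06 for Ibsp, 1.02 for Col1a2 and 1.01 for Col1a1, and Bglap had 17 counts there. Alpl, an enzyme needed for mineral deposition, was at 83.7, 25.0 and 20.4 CPM with supernatant and 16.2, 29.7 and 27.2 CPM on PEEK alone, and Sp7, a transcription factor of osteoblasts, at 30.3, 11.7 and 9.46 CPM with supernatant and 15.3, 13.3 and 12.75 CPM on PEEK alone. The exception was Spp1 (osteopontin), lowest in that library, at 189, 368 and 409 CPM with supernatant and 371, 359 and 331 CPM on PEEK alone. Replicate 1 with supernatant was also highest for 3 of 5 chondrocyte, 3 of 11 macrophage and 0 of 6 adipocyte markers. Over the 10 osteoblast markers, of which Col1a2 had by far the highest counts, the summed level was 5100 to 8680 CPM with supernatant and 7160 to 8530 CPM on PEEK alone. The part of these differences between libraries in the Wnt values was not tested. In bulk RNA, fewer cells of a type and less RNA per cell cannot be told apart.

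**Figure D4:**
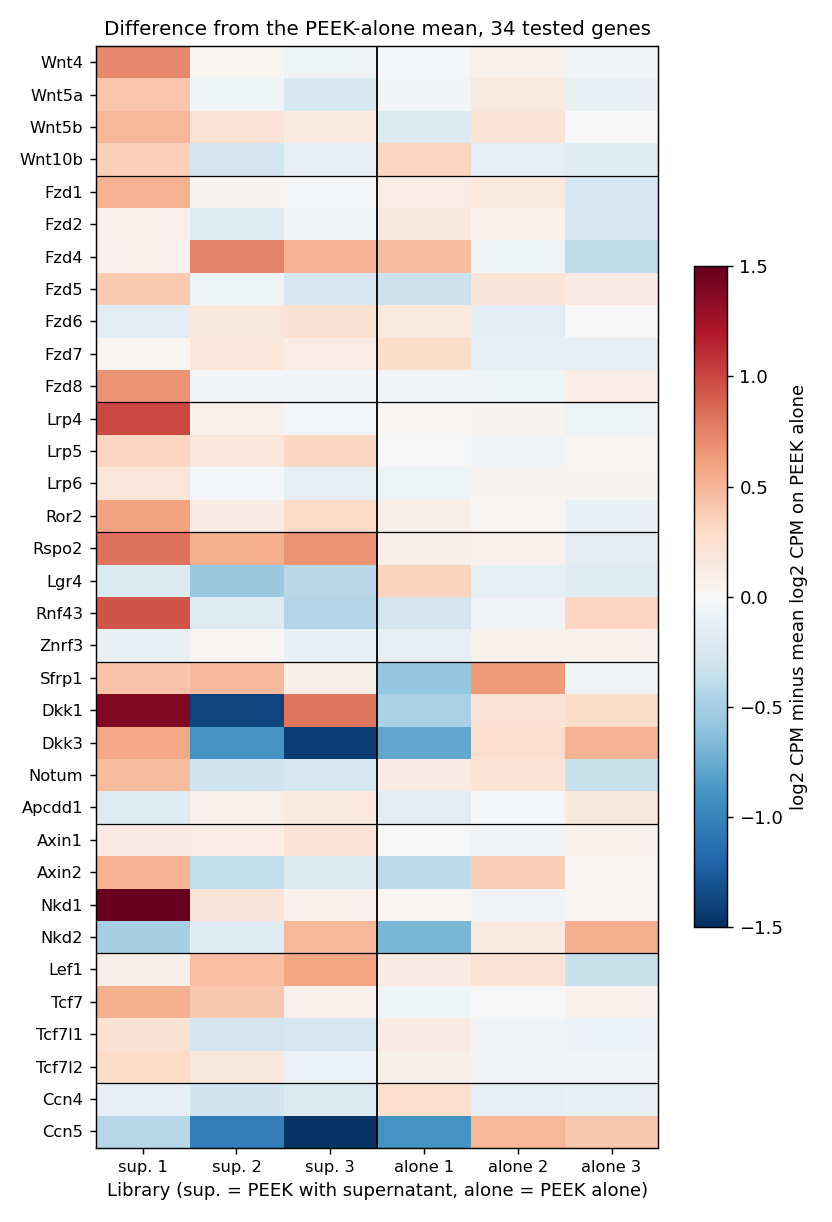
Heat map of log2 CPM minus the mean log2 CPM on PEEK alone for the 34 tested Wnt genes (rows, grouped by role) in the 3 libraries with supernatant (left) and the 3 on PEEK alone (right); red is above and blue below that mean, and colours saturate at 1.5. The column of replicate 1 with supernatant is red for most rows, while Rspo2 and Lrp5 are red in all 3 libraries with supernatant.

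Without replicate 1 with supernatant, 0 of the 34 genes passed with edgeR, against 1.06% of all tested genes, and 8 had an unadjusted p under 0.05, as did 17.3% of all tested genes. Without replicate 1 of both groups, a setting chosen after the data were seen, 1485 of all 18368 tested genes passed. Of these, 864 were higher with supernatant and 621, or 3.38% of all tested genes, were lower. Among the 34 Wnt genes 0 passed as higher with supernatant and 2 as lower. These were Ccn5 (log2 fold change −1.68, edgeR adjusted p = 0.00504) and Dkk3 (−1.52, edgeR adjusted p = 0.0130). The 2 libraries left per group were the most alike of their group, and neither gene passed in any other alternative (lowest adjusted p 0.143 for Ccn5 and 0.161 for Dkk3, both without replicate 1 with supernatant). In that setting the log2 fold change was 0.26 for Lrp5 (edgeR adjusted p = 0.0771), 0.67 for Rspo2 (0.118) and −0.31 for Lgr4 (0.0725).

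Beyond the 37 genes, 72 of 85 further genes of the pathway were in the table and 60 had enough counts. None passed the threshold, against 0.0165% of all tested genes. At an unadjusted edgeR p under 0.05, 5 of the 60 had a higher level with supernatant and 4 a lower one. Over all tested genes these shares were 4.65% and 4.3%. The median log2 fold change of the 60 genes was 0.03. The smallest p belonged to Nfatc1, a calcium-responsive transcription factor, at 31.9, 30.7 and 32.3 CPM with supernatant and 48.0, 40.5 and 39.8 CPM on PEEK alone (log2 fold change −0.44, SE 0.10, edgeR adjusted p = 0.266). Wls, which carries Wnt proteins to the cell surface, was at 263, 216 and 207 CPM with supernatant and 306, 307 and 295 CPM on PEEK alone (log2 fold change −0.41, SE 0.10, edgeR adjusted p = 0.305). For both genes the groups were separate. Myc, a target of many growth pathways, was at 267, 257 and 256 CPM with supernatant and 224, 221 and 216 CPM on PEEK alone (log2 fold change 0.24, SE 0.07, edgeR adjusted p = 0.370), again without overlap. Csnk1d (casein kinase 1 delta), Kremen1 (a Dkk1 co-receptor) and Ptk7 (a receptor-like protein of planar polarity) came after these: the log2 fold change was 0.22 for Csnk1d (edgeR adjusted p = 0.446), −0.35 for Kremen1 (0.453) and 0.32 for Ptk7 (0.480). β-catenin itself, Ctnnb1, had a log2 fold change of −0.21 (SE 0.09, edgeR adjusted p = 0.572).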

How the data were processed

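Oligo(dT)-selected RNA of 6 libraries of MC3T3-E1 cells was sequenced after a dUTP second-strand step and with molecular identifiers in the adapters, per the labels' protocols. The authors' deposited table gives raw counts and FPKM for each gene, per the file headers. The submitters' processing notes name the tools cutadapt 1.9 and HISAT2 2.2.1. Counting tool, strand setting, treatment of molecular identifiers, build and annotation: not given in the sources used here. Antisense transcripts may therefore add to a gene's count. Libraries SPS2, SPS3, SP2 and SP3 are titled as biological replicates and SPS1 and SP1 carry no replicate label, so the replicate numbers here follow the library names; since nothing else describes separate cultures, p-values cover the spread among libraries, which may be technical. No library was a copy of another (chi-square per gene 25.4 to 112).

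Counts were tested with edgeR 4.0.16 in R 4.3.3 (TMM, filterByExpr with minimum count 10 and minimum total 15, quasi-likelihood, group as the only term), with Benjamini-Hochberg adjustment over the 18177 tested genes. The SE is the log2 fold change over the square root of F. CPM uses TMM-scaled library sizes. DESeq2 1.42.0, limma 3.58.1 on log2(FPKM + 1), other scalings and filters, a replicate block and leaving out each library were alternatives. Same-numbered libraries correlated at −0.03, −0.012 and 0.019 in their deviations from group means and were not treated as pairs. Members, lists and the rule for named genes (the 10 tested members of smallest p, the feedback targets, the most abundant member of each role and the 6 other pathway genes of smallest p) were chosen with earlier results of these data known. Wnt4, Wnt5b, Fzd8, Lrp4, Dkk1, Dkk3, Sfrp1, Sfrp2, Tcf7l2, Ctnnb1, Ccnd1 and the markers Cd68, Fcgr3, Cebpa and Spp1 were named beyond that rule, after their values were seen.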

Additional observations from a re-analysis of the deposited data

How the results depend on the processing

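No Wnt gene passed an adjusted p of 0.05 under the other scalings, filters and tools, with the replicate block or without single libraries, and 2 passed without replicate 1 of both groups, a setting added after the data were seen. Over all genes, edgeR called 3 (1627 at an unadjusted p under 0.05); the count was 294 with DESeq2, 20 at an adjusted p under 0.1, 0 without a low-count filter (1903 unadjusted), 0 with limma without a filter (2221), 0 with the replicate block (1330), 0 to 199 without single libraries and 1485 without replicate 1 of both groups; the cause was not tested. The 199 came without replicate 1 with supernatant. The median log2 fold change of the Wnt genes was 0.10 with the replicate block, 0.06 to 0.12 under the scalings, filters and other tools, 0.02 to 0.171 without single libraries and −0.022 without replicate 1 of both groups. The medians of 0.061 and 0.068 from limma with the FPKM filter cover only the 24 genes tested there. With all 6 libraries kept, changes of sign were among small values: with the replicate block Notum had −0.023 and Axin2 −0.020, with limma Notum had −0.007, −0.011 and −0.007, and with total counts only Wnt10b had 0.004. Where libraries were left out, some changes of sign were larger. Without single libraries the log2 fold changes spanned −0.058 to 0.117 for Apcdd1, −0.307 to 0.207 for Axin2, −0.176 to 0.033 for Fzd2, −0.170 to 0.156 for Fzd5, −0.029 to 0.357 for Fzd8, −0.076 to 0.075 for Lrp6, −0.415 to 0.218 for Nkd2, −0.279 to 0.136 for Notum, −0.322 to 0.459 for Rnf43, −0.254 to 0.007 for Tcf7l1, −0.209 to 0.174 for Wnt10b, −0.010 to 0.412 for Wnt4 and −0.145 to 0.187 for Wnt5a. Without replicate 1 of both groups they were −0.478 for Axin2, −0.130 for Dkk1, −0.309 for Fzd5, −0.046 for Fzd8, −0.110 for Lrp6, −0.222 for Notum, −0.445 for Rnf43, −0.018 for Sfrp1, −0.019 for Wnt4 and −0.162 for Wnt5a.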
